A study of Mus musculus with 27 samples.

Results

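The comparison described here is that of SPOC-line cells given doxycycline and auxin (Dox+auxin, 5 libraries) with SPOC-line cells given doxycycline alone (Dox, 5 libraries), so 10 of the 27 RNA sequencing libraries of the series. The libraries were chosen by the labels' line and treatment. All libraries came from TX1072, a female mouse embryonic stem cell line from a BL/6J x CAST-EiJ cross in which doxycycline drives Xist from the BL6 X chromosome. Every group carried SPEN fused to an auxin-inducible degron. SPOC-line cells also carried BglG-GFP-SPOC, the SPOC domain of SPEN on a bacterial RNA-binding protein that brings its partner to Xist RNA. GFP-line cells, used for comparison, carried BglG-GFP without that domain. Dox cells of each line received doxycycline at 1 ug/mL for 24 h, and Dox+auxin cells were first kept in auxin for 12 h, after which both agents were present for 24 h. GFP-line groups held 4 libraries each (8 in all), and the 5 SPOC-line and 4 GFP-line untreated libraries were used as a reference level. No cells without the degron received auxin, so auxin and loss of SPEN cannot be told apart. No group received auxin alone, so effects of auxin without doxycycline were not measured. Each construct was in 1 line, so the SPOC domain and other differences between the lines cannot be told apart either.

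X inactivation silences 1 X chromosome of female cells. Xist RNA coats the chromosome that makes it, and SPEN, bound to Xist through its RNA-recognition domains, recruits co-repressors through its SPOC domain, among them the NCoR and SMRT complexes with the deacetylase HDAC3. In hybrid cells the share of reads from each parental allele shows how far the Xist-bearing chromosome has been silenced.

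The 10 libraries held 29034115 to 35925626 counts each, of which 34.4% to 34.8% (10000674 to 12485110 counts) were assigned to an allele. The design text calls the replicates biological and gives their number as 4, while each SPOC-line group holds 5 libraries, and nothing else in the labels says how the cultures were separated. Dox+auxin replicates 1 and 2 were the closest pair, with a chi-square per gene of 1.76 against 6.62 to 13.2 for the other pairs of that group. The library labelled untreated replicate 2 of the SPOC line stood apart. Xist was at 179 CPM (counts scaled to the total of the library) there and at 1.01 to 1.67 CPM in the other 4, and values against untreated cells are given without it unless stated. The markers that define embryonic stem cells were high, with Pou5f1 at 913 to 1091 CPM over the 10 libraries. Of the fibroblast feeder markers, Col3a1, Lum, Dcn, Postn and S100a4 were at or under 0.0904 CPM, and of the neural markers Neurog2 and Fabp7 at or under 0.0889 CPM. Other members of these lists were well expressed, among them Fn1 (881 to 1081 CPM) and Vim (215 to 332 CPM) of the feeder markers and Stmn2 (173 to 250 CPM) and Nefl (107 to 147 CPM) of the neural markers.

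Spen RNA itself was the first check on the treatment. Spen (ENSMUSG00000040761, chromosome 4, 141467890 to 141538597, minus strand) stood at 370, 356, 355, 351 and 326 CPM with Dox and at 991, 997, 965, 1257 and 1074 CPM with Dox+auxin. Every Dox+auxin library lay above every Dox library, a log2 fold change of 1.57 ± 0.13 (SE; adjusted p = 3.09e-07, edgeR quasi-likelihood test). A degron acts on the protein, and protein was not measured here. The BL6 share of Spen was 49.1% ± 1.4 (SD, n = 5) in Dox libraries and 47.6% ± 0.59 in Dox+auxin libraries. Spen was at 326 CPM or more in SPOC-line Dox libraries and at 176 to 212 CPM in GFP-line Dox libraries, and whether transcripts of the construct's SPOC domain were counted to Spen was not tested.

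Xist (ENSMUSG00000086503, chromosome X, 103460366 to 103483254, minus strand) was at 419, 410, 452, 334 and 305 CPM with Dox and at 340, 348, 411, 293 and 306 CPM with Dox+auxin. Both groups overlapped over most of their range, and the log2 fold change of -0.19 ± 0.14 did not pass (adjusted p = 0.348, edgeR). BL6 reads made up 99.3% ± 0.13 (SD, n = 5) of the allelic counts of Xist in Dox libraries and 99.2% ± 0.27 in Dox+auxin libraries. Xist in the GFP line fell by 0.76 on the log2 scale with auxin (adjusted p = 0.0013, edgeR), from 740 to 907 CPM to 386 to 642 CPM. The difference between the lines did not pass (adjusted p = 0.15).

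X-linked genes had a higher BL6 share when auxin came before and with doxycycline. The median BL6 share over 442 X-linked genes (Xist and its antisense partner Tsix left out; at least 10 allelic counts in every library) was 30.9%, 29.7%, 30.6%, 30.6% and 29.4% in the Dox libraries. With Dox+auxin it was 39.3%, 39.0%, 38.9%, 39.3% and 38.6%. All Dox+auxin libraries lay above all Dox libraries, by 8.78 percentage points on average (exact two-sided permutation p = 0.00794, the smallest that 5 against 5 libraries allow). The 4 untreated libraries without Xist had 50.2% ± 0.49 (SD, n = 4), which the Dox+auxin mean of 39.0% did not reach: it covered 44.0% of the distance from Dox to untreated. With all 5 untreated libraries that figure was 49.3%. Over 12151 autosomal genes with at least 10 allelic counts in each of the 27 libraries the median share was 50.3% ± 0.082 with Dox and 50.4% ± 0.086 with Dox+auxin, a difference of 0.0509 points (exact permutation p = 0.381). Chromosome 16 had medians of 33.4% and 33.5% in the SPOC Dox and Dox+auxin groups and of 33.3% in the untreated GFP line.

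**Figure D1:**
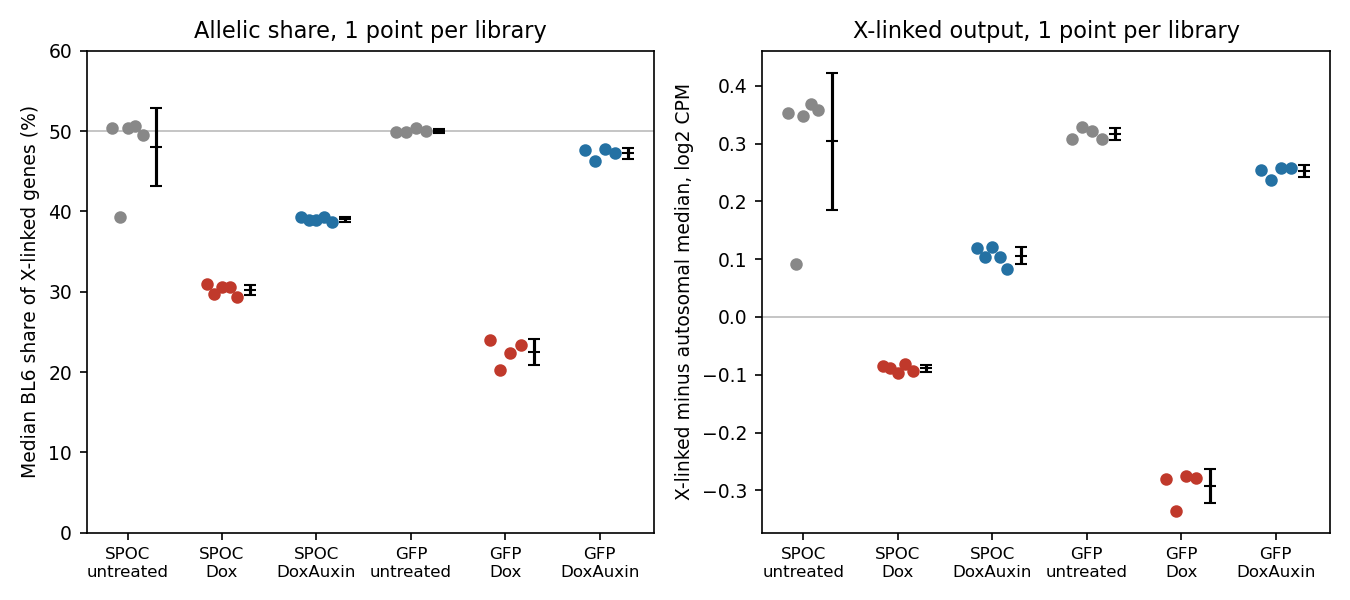
Median BL6 share of X-linked genes (left, %) and X-linked minus autosomal median of centred log2 CPM (right) in each of the 27 libraries, 1 point per library, with group mean and SD beside the points. The 5 SPOC Dox+auxin libraries sit between 38.6% and 39.3%, above the Dox libraries (29.4% to 30.9%) and below the GFP Dox+auxin libraries (46.3% to 47.8%); the 1 low SPOC untreated point is replicate 2.

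Levels of the alleles were also taken separately, as allelic counts scaled to the autosomal allelic counts of the library, with 0.5 added, in log2 and centred per gene on the 18 Dox and Dox+auxin libraries of both lines (a step added after seeing the data). For the BL6 allele, the X-linked median minus the autosomal median ran from -0.24 to -0.16 in the Dox libraries. In the Dox+auxin libraries it ran from 0.25 to 0.34, a rise of 0.51 (exact permutation p = 0.00794). The same value of the CAST allele, which bears no induced Xist, ran from -0.01 to 0.01 with Dox and from 0.02 to 0.05 with Dox+auxin. Its difference was 0.03 (exact permutation p = 0.00794) and no library of one group overlapped the other, at a size far under that of the BL6 allele.

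Gene by gene, 229 of the 442 X-linked genes had a higher BL6 to CAST ratio with Dox+auxin, 2 had a lower one and 211 did not pass (adjusted p under 0.05, edgeR on allelic counts with library as a block). Over all 12695 genes tested, 3.66% were called higher and 1.59% lower. The median log2 change of the ratio was 0.49 over X-linked genes and 0.00 over autosomal genes. In 211 X-linked genes all 5 Dox+auxin libraries lay above all 5 Dox libraries, and in 1 gene below them, beside 3.31% and 1.56% of all genes. The mean share moved up by more than 10 points in 133 genes, by 5 to 10 points in 129, and stayed within 5 points in 173. In 7 genes it dropped by more than 5 points. With Dox+auxin 394 of the 442 genes were below their untreated mean (all 5 libraries). Genes that did not pass had a median share of 30.9% with Dox and 34.2% with auxin added, against 29.9% and 42.8% for the genes called higher. Their lowest allelic counts were also fewer (medians of 62 and 446), and the part of depth in the calls was not tested.

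Firre, a long non-coding RNA gene that escapes X inactivation in many cells (chromosome X, 50555744 to 50635321), came close to its untreated level. The BL6 share of Firre was 43.1%, 45.5%, 37.3%, 44.3% and 43.2% with Dox, and 73.9%, 75%, 75.4%, 71.5% and 70.4% with Dox+auxin. Untreated libraries without Xist had 78.2% to 82.0%. The log2 change of the Firre ratio was 1.89 ± 0.11 (SE; adjusted p = 1e-09, edgeR). Rragb, a GTPase of the amino acid branch of mTORC1 signalling, went from 5.45% to 8.66% over the Dox libraries to 24.5% to 30.5% with Dox+auxin, while untreated libraries without Xist had 48.8% or more. Magt1, a subunit of the oligosaccharyltransferase complex, had 14.4%, 13.6%, 10.3%, 13.9% and 11.8% with Dox and 34.6%, 33.6%, 34.8%, 35.2% and 35.4% with Dox+auxin (log2 change 1.86 ± 0.07, adjusted p = 6.6e-40, edgeR). For Magt1 too the groups were far apart, and the untreated range of 45.8% to 48.0% lay above both.

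Other large called rises were those of Zmym3, a zinc finger protein of a deacetylase complex (14.4% ± 1.7 to 36.3% ± 1.3; SD, n = 5 each), Dlg3, a synaptic scaffold protein (20.5% ± 4.3 to 45.4% ± 5.3), Klf8, a transcription factor (11.3% ± 1.5 to 28.5% ± 2.1), and Morf4l2, a member of histone acetyltransferase complexes (9.39% ± 1.7 to 23.9% ± 1.6). Iqsec2, an exchange factor for ARF GTPases, went from 16.2% ± 8.0 to 39.1% ± 5.3 on as few as 32 allelic counts in a library. Tceal7 (1.92% ± 2.6 to 9.25% ± 4.8, with overlap) and Hnrnph2 (6.21% ± 4.2 to 22.6% ± 5.4), an RNA-binding protein, completed the 10 largest rises. Their untreated means over all 5 libraries were 9.29% and 20.9%, and their lowest allelic counts were 59 and 11.

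Rlim, the X-linked ubiquitin ligase that activates Xist by degrading REX1 (chromosome X, 103957163 to 103981284, minus strand), is a neighbour of Xist. The BL6 share of Rlim was 12.2%, 14.4%, 7.83%, 12.2% and 10.4% with Dox and 25%, 27.1%, 20.7%, 24.8% and 23.7% with Dox+auxin, below the 51.3% or more of untreated libraries without Xist. Hprt, the purine salvage enzyme, moved from 42.7% ± 0.56 to 49.0% ± 0.98, and Pgk1, the glycolytic kinase, from 7.56% ± 0.30 to 13.2% ± 0.93, against 17.4% to 19.3% in untreated libraries without Xist. Atrx, a chromatin remodeller, moved from 14.6% ± 1.1 to 24.7% ± 1.3. All of these passed the edgeR test on allelic counts, and in none of them did the Dox and Dox+auxin libraries overlap.

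Housekeeping genes on the X chromosome followed the same course: of 30 listed, 28 had enough allelic counts, 24 of these were called higher in BL6 share and 0 lower (edgeR, adjusted p under 0.05), with a list median of 35.8% with Dox, 45.3% with Dox+auxin and 48.2% untreated (all 5 libraries). Of 14 measured X-linked regulators of embryonic stem cells, 7 were called higher and 0 lower, with medians of 31.7% and 43.4%. Among genes known to escape X inactivation, 8 of 13 measured were called higher and 0 lower. The shares called higher of the regulators and escape genes were near that of all X-linked genes, 229 of 442. Kdm5c, a histone H3K4 demethylase, went from 37.4% ± 0.69 to 47.0% ± 0.82 and Ddx3x, an RNA helicase, from 41.6% ± 0.93 to 46.2% ± 0.37. Kdm6a, the H3K27 demethylase UTX, was at 53.4% ± 1.3 with Dox and 54.8% ± 1.0 with Dox+auxin and did not pass (adjusted p = 0.55, edgeR), and its untreated mean over all 5 libraries was 54.4%.

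Among X-linked genes, Uprt and Rps6ka6 alone were called lower in BL6 share. Uprt, a uracil phosphoribosyltransferase homologue, had 5.45% to 14.0% with Dox and 0% to 5.88% with Dox+auxin, on as few as 39 allelic counts; the libraries overlapped (adjusted p = 0.025, edgeR). Its GFP-line share went the other way, from 6.08% to 42.3%, and the test of the difference between lines passed (adjusted p = 2.7e-10, edgeR). Rps6ka6, a ribosomal S6 kinase, was at 31.3% ± 2.2 and 28.5% ± 0.53 (adjusted p = 0.047, edgeR), also with overlap, and rose in the GFP line from 24.6% to 36.6%. Leaving out SPOC Dox replicate 2 or Dox+auxin replicate 5 gave 2 X-linked genes called lower. Without Dox replicate 4, or Dox+auxin replicate 2 or 3, there were 0, and without any other single library 1.

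**Figure D2:**
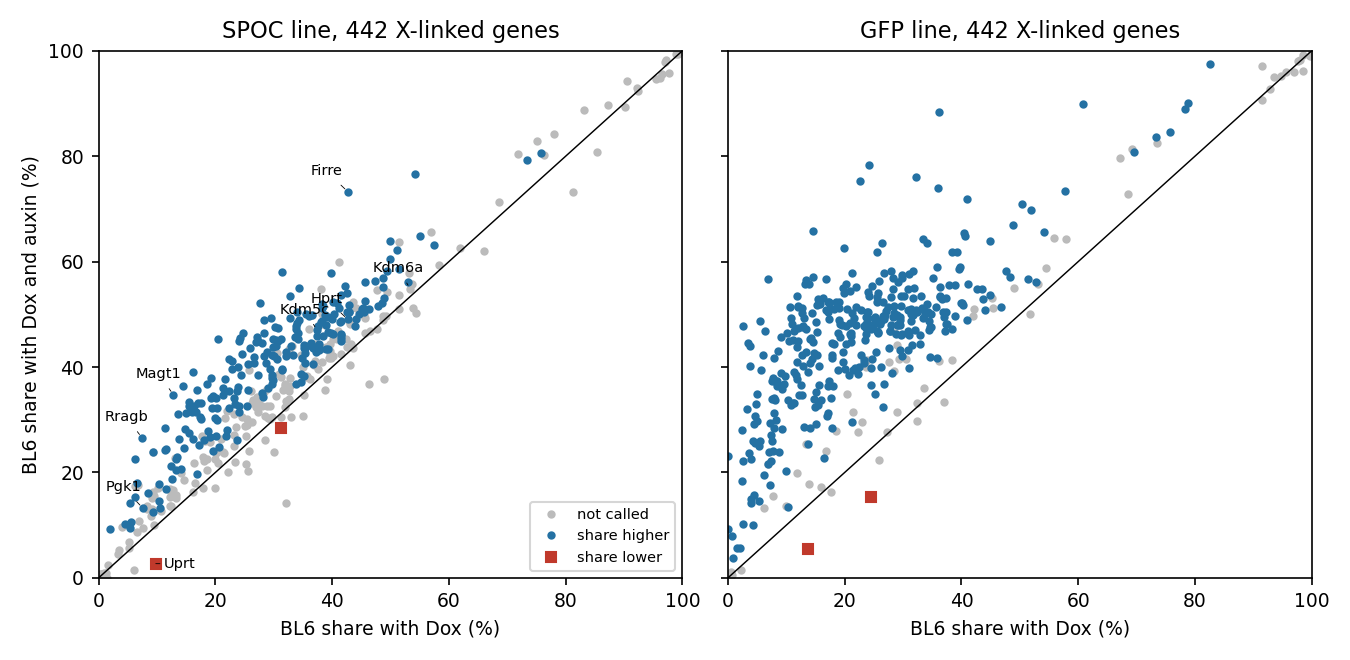
BL6 share with Dox (x axis, %) against Dox+auxin (y axis, %) for 442 X-linked genes, as means over 5 SPOC-line (left) or 4 GFP-line (right) libraries, with the diagonal of equal shares. In the SPOC line 229 genes were called higher (blue) and lie above the diagonal, and 2 were called lower (red squares); in the GFP line these counts were 365 and 2.

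The share with Dox and its difference with auxin both varied along the chromosome (bins were added after seeing the data and are given without a test). Within 10 Mb of Xist, 72 genes had a median BL6 share of 20.5% with Dox and 30.4% with Dox+auxin. Between 10 and 30 Mb on the centromeric side, 50 genes had 33.8% and 47.4%, where 47.4% stood beside 49.5% in all 5 untreated libraries. The next bin on that side, from 30 to 60 Mb, held 89 genes at 32.8% and 38.4%, beside 48.8% untreated. More than 60 Mb away on that side, 92 genes had 39.99% and 47.2%. Between 30 and 60 Mb on the telomeric side, 114 genes had 23.3% and 32.3%, and the stretch from 10 to 30 Mb on that side held only 3 genes. Beyond 60 Mb on the telomeric side, 22 genes had 37.8% and 43.2%. In the GFP line the same 72 genes went from 16.7% to 45.7%, against 47.2% for them in all 5 untreated SPOC libraries.

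**Figure D3:**
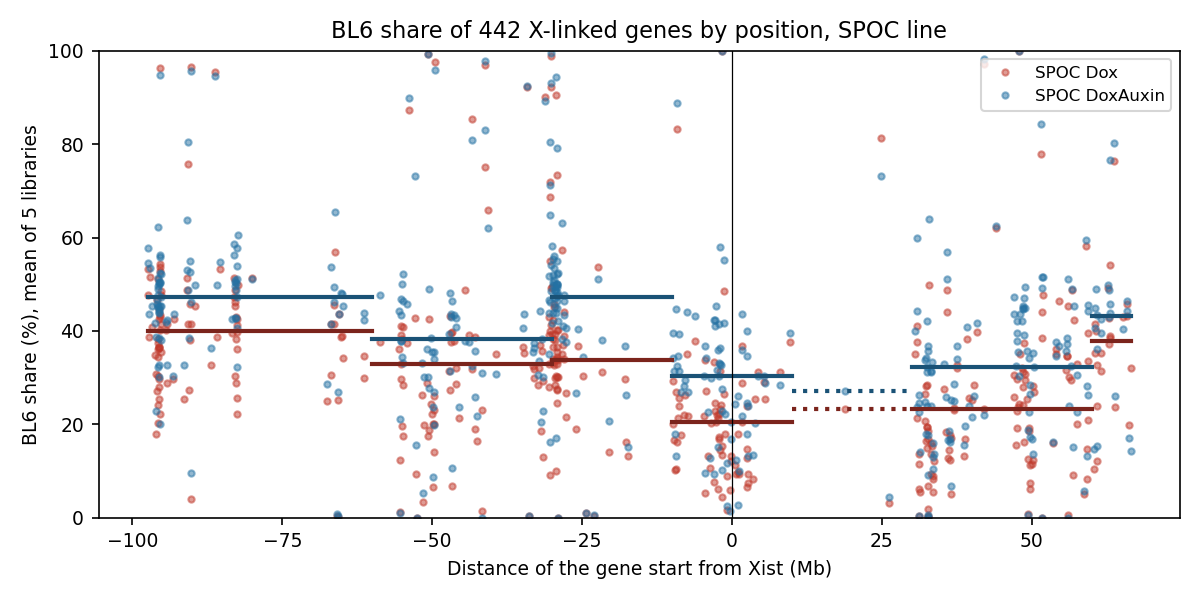
BL6 share (%) of each of 442 X-linked genes by the distance of its start from Xist (Mb, negative toward the centromere), as means of 5 SPOC Dox (red) and 5 SPOC Dox+auxin (blue) libraries; bars are bin medians, dotted for the bin of 3 genes. Bars dip to 20.5% and 30.4% within 10 Mb of Xist and reach 39.99% and 47.2% beyond 60 Mb on the centromeric side.

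Genes were also sorted by their BL6 share in GFP-line Dox libraries. These shares are not part of the SPOC shares, although the GFP-line libraries shared the fit and the filter on counts. The sorting is not by silencing alone, since the bins also differed without doxycycline. Medians over all 5 untreated SPOC libraries were 31.4% for genes under 10%, 45.9% for those between 10% and 20%, and 68.7% for those at 40% or more. The 85 genes under 10% BL6 in GFP-line Dox libraries had SPOC-line medians of 9.39% without and 15.6% with auxin, and 29 of them were called higher. The 109 genes between 10% and 20% had 22.3% and 32.4%, and 68 were called higher. The 119 genes between 20% and 30% had 33.7% and 42.7%, with 70 called higher. The 71 genes between 30% and 40% had 41.1% and 47.8%, with 47 called higher. The 58 genes at 40% or more had 57.1% and 62.8%, with 15 called higher. Over all 442 X-linked genes 229 were called higher. Median change was greatest between 10% and 20%, at 9.07 points, and smallest at 40% or more, at 2.95 points.

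Total X-linked expression rose as well, by less. The output measure, the median centred log2 CPM of X-linked genes minus that of autosomal genes (544 X-linked and 13609 autosomal genes averaging 1 CPM or more; 0.1 CPM added), was -0.10 to -0.08 in the Dox libraries and 0.08 to 0.12 in the Dox+auxin libraries. All Dox+auxin libraries were higher, by 0.19 (exact two-sided permutation p = 0.00794). Untreated SPOC libraries without Xist stood at 0.35 to 0.37. Of 698 X-linked genes tested, 284 rose, 60 fell and 354 did not pass (edgeR, adjusted p under 0.05), and their median log2 fold change was 0.15, beside -0.02 for 17297 autosomal genes. Over all 18019 genes tested, 15.4% rose (2781) and 15.5% fell (2791), with a median of -0.01. In 247 X-linked genes all Dox+auxin libraries lay above all Dox libraries and in 36 below, where 10.9% and 8.43% of all genes did so. Of the 229 genes called higher in BL6 share, 169 also rose in total counts and 8 fell.

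Of the X-linked rises named by the rule that of Firre was the largest, from 31.3, 34.0, 31.0, 30.1 and 30.6 CPM with Dox to 104, 109, 100, 83.3 and 82.0 CPM with Dox+auxin (log2 fold change 1.59 ± 0.08, adjusted p = 1.21e-10, edgeR). Untreated libraries without Xist had 68.4 to 93.9 CPM, which overlaps the Dox+auxin range. Rragb went from 16.4 to 23.9 CPM to 41.0 to 48.9 CPM, a log2 fold change of 1.15 ± 0.07. Rlim had 114, 119, 86.8, 117 and 102 CPM with Dox and 222, 213, 165, 231 and 178 CPM with Dox+auxin (log2 fold change 0.89 ± 0.09, adjusted p = 2.31e-06, edgeR), and untreated libraries without Xist had 208 to 248 CPM. Other rises among the 10 largest came from Mdrl (1.29), a non-coding RNA gene, Rtl8c (1.21), a retrotransposon-derived gene, S100g (1.12), a calcium-binding protein, Rhox1 (1.04), a homeobox gene of the reproductive cluster, Rab39b (0.98), a vesicle GTPase, Map7d3 (0.98), a microtubule-associated protein, and Tmem35a (0.97), a receptor chaperone, all as log2 fold changes.

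X-linked falls were fewer, and smaller among the genes named by the rule. Adgrg2, an adhesion receptor, had 3.83 to 4.37 CPM with Dox and 2.07 to 2.72 CPM with Dox+auxin (log2 fold change -0.82 ± 0.11, adjusted p = 9.11e-06, edgeR). Diaph2, a formin that builds actin filaments, fell from 57.8 to 61.7 CPM to 39.6 to 47.5 CPM. Others among the 10 largest falls were Ube2dnl1 (-0.83), Sh3kbp1 (-0.75), an endocytic adaptor, Aff2 (-0.64), Cnksr2 (-0.50), Tbc1d8b (-0.44), Xpnpep2 (-0.41), an aminopeptidase, and Otud6a (-0.40), a deubiquitinase, all as log2 fold changes. Of the 60 X-linked genes that fell, 23 also fell in the GFP line and 7 rose there. Of all 698 X-linked genes tested, 32 fell and 455 rose in the GFP line.

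Within the X-inactivation centre, 9 of 12 listed genes were tested, of which 2 rose, Rlim and Ftx, and 5 fell. Of all 698 X-linked genes tested (Xist and Tsix left out), 284 rose and 60 fell. Ftx, a non-coding activator of Xist, stood at 0.315 to 0.640 CPM with Dox and 0.402 to 0.935 CPM with Dox+auxin; its log2 fold change of 0.70 (adjusted p = 0.0437, edgeR) lost its call in 7 of the 10 fits that left out 1 library. Tsix, the antisense repressor of Xist, fell from 10.9, 7.49, 10.5, 7.98 and 7.41 CPM to 6.23, 5.69, 7.24, 4.95 and 5.72 CPM (-0.58 ± 0.17, adjusted p = 0.0125, edgeR). Tsix and Xist overlap, no source used here gives the strand setting, and the BL6 share of Tsix was 16.2% with Dox, far from that of Xist. Cdx4 (-1.65) and Tsx (-1.51) also fell, at levels under 1 CPM.

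Of 30 X-linked housekeeping genes, 15 rose, 1 fell and 14 did not pass, with a median log2 fold change of 0.15. Among all 698 X-linked genes tested, 284 rose and 60 fell. Magt1 had the largest rise of these, from 81.0, 86.5, 84.2, 88.2 and 82.2 CPM to 139, 139, 147, 138 and 137 CPM (0.71 ± 0.04), followed by Lamp2 (0.54), a lysosomal membrane protein, and Rbbp7 (0.43), a histone-binding subunit of several chromatin complexes. Hprt rose by 0.13, from 171 to 181 CPM to 182 to 202 CPM. Pgk1 did not pass, at 399 to 500 CPM with Dox and 295 to 508 CPM with Dox+auxin, though its BL6 share had risen. Of 15 X-linked embryonic stem cell regulators, 10 rose and 1 fell: Dusp9 (0.43), a phosphatase that limits ERK signalling, Fgd1 (0.63) and Sox3 (0.43) rose, and Nr0b1, the pluripotency factor DAX1, fell (-0.24). Of 17 escape genes, 6 rose and 1, Kdm6a, fell (-0.12).

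Away from the X chromosome, the 3 largest rises named by the rule were Cyp1a1, Cyp1b1 and Ahrr, targets of the aryl hydrocarbon receptor (AhR), a transcription factor switched on by aromatic compounds. Of 11 AhR targets tested (like all lists here, chosen with earlier results of these data known), 7 rose and 0 fell, with a median log2 fold change of 0.35. Over all genes tested 15.4% rose and 15.5% fell. To show the sequence ahead of the genes that moved most, the 250 bases before the RefSeq start of Cyp1a1, Cyp1b1 and Ahrr (chosen after their values were seen; RefSeq, build GRCm38.p6) are printed 5′ to 3′ on the gene's strand, with the AhR core GCGTG, on either strand, in capitals:
Cyp1a1, chr9:57697363-57697612, plus strand: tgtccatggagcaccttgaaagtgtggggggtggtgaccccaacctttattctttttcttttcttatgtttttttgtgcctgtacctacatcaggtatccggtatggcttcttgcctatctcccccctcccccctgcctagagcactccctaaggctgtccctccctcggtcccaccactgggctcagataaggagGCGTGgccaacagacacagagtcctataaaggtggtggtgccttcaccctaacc
Cyp1b1, chr17:79715062-79715311, minus strand: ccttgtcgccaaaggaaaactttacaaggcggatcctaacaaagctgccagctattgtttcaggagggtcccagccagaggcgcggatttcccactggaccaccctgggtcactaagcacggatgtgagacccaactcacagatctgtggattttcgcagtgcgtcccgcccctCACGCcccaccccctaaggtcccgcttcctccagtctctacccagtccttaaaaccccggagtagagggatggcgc
Ahrr, chr13:74292332-74292581, minus strand: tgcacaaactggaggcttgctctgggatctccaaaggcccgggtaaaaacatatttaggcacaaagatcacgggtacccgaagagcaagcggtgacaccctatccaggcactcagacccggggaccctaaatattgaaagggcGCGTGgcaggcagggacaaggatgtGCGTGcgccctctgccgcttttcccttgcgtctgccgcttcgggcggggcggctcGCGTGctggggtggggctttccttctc
The windows of Cyp1a1 and Cyp1b1 held 1 match each and that of Ahrr 3. Those of Cyp1a2 and Nqo1, which also rose, held 0, and that of Tiparp, which did not pass, held 1. Of 27025 mouse promoters of the same length, 28.2% held at least 1, so a match in this window is common.

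Cyp1a1, the cytochrome P450 that oxidises AhR ligands (chromosome 9, 57687928 to 57703824), was at 0.964, 1.67, 0.859, 2.15 and 1.08 CPM with Dox and at 28.0, 26.1, 21.1, 50.4 and 44.4 CPM with Dox+auxin, a log2 fold change of 4.64 ± 0.31 (adjusted p = 3.8e-08, edgeR). All Dox+auxin libraries lay many times above all Dox libraries. Cyp1b1, a related P450, went from 1.65, 1.67, 0.458, 2.35 and 0.633 CPM to 9.41, 8.83, 3.63, 14.8 and 5.35 CPM (2.64 ± 0.40), also with no overlap. Ahrr, the receptor's own repressor, went from 0.654 to 1.26 CPM to 3.83 to 6.46 CPM (2.54 ± 0.18). Cyp1a2 was at 0 to 0.121 CPM with Dox and 0.486 to 0.804 CPM with Dox+auxin (adjusted p = 5e-07, edgeR). The other rises were Aldh3a1 (0.51), the NAD(P)H reductase Nqo1 (0.35) and Ahr itself (0.22), as log2 fold changes. Tiparp, an ADP-ribosyltransferase and a common AhR target, stood at 58.7 to 65.9 CPM with Dox and 62.1 to 74.3 CPM with Dox+auxin and did not pass. The difference between lines did not pass for Cyp1a1 (4.64 and 4.60, adjusted p = 0.98, edgeR), while Nqo1 differed (0.35 in the SPOC line, 0.01 in the GFP line; adjusted p = 0.012).

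Neural and Notch genes were mixed, where 15.4% of all genes tested rose and 15.5% fell. Sox21, a SoxB2 transcription factor, went from 9.75, 8.99, 11.0, 9.51 and 8.47 CPM to 26.4, 24.0, 32.7, 28.2 and 21.9 CPM (log2 fold change 1.46 ± 0.10), and Nes, the intermediate filament of neural progenitors, from 48.8 to 58.3 CPM to 105 to 130 CPM (1.12 ± 0.06). Pax6, the eye and forebrain regulator, rose by 1.55 at levels of 0.429 to 2.46 CPM. Of 9 neural markers tested, 5 rose and 3 fell (Sox1, -0.88, Map2, -0.63, and Stmn2, -0.40). The summed level of these 9 markers, of 14 listed, was 506 to 566 CPM with Dox and 576 to 639 CPM with Dox+auxin. Its part in the other results was not tested. SPEN is also a co-repressor of RBPJ, the DNA-binding effector of Notch. Of 13 Notch and RBPJ targets, 6 rose, 3 fell and 4 did not pass. Notch1 had 63.2, 65.5, 57.8, 65.6 and 56.8 CPM with Dox and 86.9, 89.0, 71.8, 99.0 and 84.6 CPM with Dox+auxin (0.46 ± 0.09), and Nrarp (0.67), Jag1 (0.66) and Hey1 (0.55) rose with it. Dll1, a Notch ligand, fell from 0.517 to 1.52 CPM to 0.369 to 0.715 CPM (-1.03 ± 0.30, adjusted p = 0.011, edgeR), with overlap.

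Other autosomal rises among the 12 largest were Mobp (1.81), a myelin-associated protein, Uts2r (1.71), the urotensin receptor, Srarp (1.56), Lrrc15 (1.32) and Meis3 (1.31), a homeobox gene, as log2 fold changes. Mobp went from 11.2, 11.9, 9.39, 10.3 and 9.25 CPM to 43.2, 43.5, 30.3, 36.5 and 31.7 CPM. Srarp went from 18.5 to 24.5 CPM to 56.1 to 66.9 CPM, the tightest of these rises (SE 0.06).

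Genes of the 2-cell-like state, a rare embryonic stem cell state marked by the Zscan4 cluster, fell together. Of 25 tested, 20 fell, 1 (Zfp600, 0.21, a call that some settings lost) rose and 4 did not pass, with a median log2 fold change of -1.45. Over all genes tested, 15.5% fell and 15.4% rose. Zscan4c had 2.48, 4.62, 3.92, 4.57 and 3.50 CPM with Dox and 0.906, 1.09, 1.02, 1.54 and 1.02 CPM with Dox+auxin (-1.80 ± 0.17, adjusted p = 5.11e-08, edgeR). Zscan4e (-2.01), Zscan4f (-1.76), Zscan4d (-1.70) and Zscan4b (-1.68) were among the 12 largest autosomal falls. Their counts are uncertain one by one, since reads of near-identical copies could be split between them. Outside the cluster, Sp110 (-1.77), Zfp352 (-1.58) and Tmem92 (-1.44) also fell. In bulk RNA, fewer cells in this state and less RNA per cell cannot be told apart. Untreated SPOC libraries had Zscan4c at 4.03 to 5.11 CPM.

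Other large autosomal falls were those of Ccser1 (-1.90), Slc13a5 (-1.86), a citrate transporter, Emp1 (-1.74), an epithelial membrane protein, Gpc6 (-1.73), a glypican, Evx1 (-1.70), a homeobox gene of the primitive streak, and Pramef25 (-1.69), as log2 fold changes. Emp1 went from 13.1, 13.1, 12.9, 12.5 and 12.2 CPM to 4.53, 3.80, 5.19, 3.02 and 2.78 CPM. Evx1 went from 7.99 to 10.7 CPM to 2.06 to 3.76 CPM. Neither gene's groups overlapped.

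Signalling genes fell in several lists, beside 15.5% of all genes tested that fell and 15.4% that rose. Of 17 genes of MAPK feedback, 9 fell and 2 rose: Dusp6, the ERK phosphatase, went from 6.30, 6.88, 6.93, 8.05 and 8.14 CPM to 2.66, 2.17, 3.35, 2.31 and 2.63 CPM (-1.48 ± 0.11), and the ETS factors Etv4 (-1.39), Etv1 (-1.09) and Etv5 (-0.34) and Myc (-0.56) fell, while Spry2 (0.18) and Dusp5 (0.23) rose. Medium with 2i holds a MEK inhibitor in all groups. Of 18 genes of activin and Nodal signalling, 8 fell and 1 rose. Inhbb, an activin subunit, went from 9.09, 9.44, 8.99, 9.01 and 7.87 CPM to 2.60, 2.89, 3.43, 3.47 and 2.60 CPM (-1.58 ± 0.08), and Fst (-0.61), Id3 (-0.60), Bmp4 (-0.55) and Nodal (-0.13) fell less. Of 15 Wnt targets, 6 rose, among them Axin2 (0.47), Sp5 (0.67) and Cdx2 (0.94), and 4 fell, among them Lef1 (-0.70).

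Falls were more frequent in both pluripotency lists than over all genes tested, of which 15.5% fell and 15.4% rose. Of 20 naive pluripotency genes, 8 fell, 2 rose and 10 did not pass, with a median log2 fold change of -0.05. Pou5f1, the core pluripotency factor OCT4, fell by 0.18 on the log2 scale, from 1033 to 1091 CPM with Dox to 913 to 1014 CPM with Dox+auxin. Tfcp2l1 (-0.26), Klf4 (-0.16) and Zfp42 (-0.17) fell, and Sox2 (0.20) and Prdm14 (0.22) rose. Of 15 formative and primed genes, 8 fell and 3 rose, with Dnmt3b (-0.78), a de novo DNA methyltransferase, and Foxd3 (-0.75) among the falls and Sall2 (0.65) among the rises.

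Stress lists differed, where 15.4% of all genes tested rose and 15.5% fell. Of 14 heat shock and chaperone genes, 2 rose, 2 fell and 10 did not pass, close to those shares. Of 25 p53 targets, 12 rose, 0 fell and 13 did not pass, with a median of 0.13. Phlda3, an inhibitor of AKT, had the largest of these, from 118, 113, 119, 116 and 101 CPM to 170, 164, 164, 165 and 153 CPM (0.51 ± 0.04), followed by Plk2 (0.40) and Ccng1 (0.34), while Cdkn1a (-0.09) did not pass. Of 26 ATF4 targets, the genes of amino acid stress, 18 fell and 3 rose, with a median of -0.25. Chac1, a glutathione-degrading enzyme, went from 9.78, 12.8, 14.3, 11.3 and 12.9 CPM to 8.21, 8.03, 9.93, 6.22 and 7.64 CPM (-0.63 ± 0.11, with overlap), and Atf3 (-0.73), Ddit3 (-0.71) and Cth (-0.70) fell.

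Among the partners of SPEN, changes were small. Of 15 genes of the NCoR, SMRT and HDAC3 and related deacetylase complexes, 7 fell and 2 rose, each called change being 0.22 or less in size on the log2 scale, and Hdac3 (0.05) did not pass. Of 24 Xist silencing factors, 7 rose, with Spen the largest and Ring1 (0.29) and Rbm15 (0.25) next, and 5 fell by 0.16 or less. Among cell cycle genes of G1, 4 of 17 rose and 3 fell; Ccnd2, cyclin D2, went from 3.31, 2.76, 5.35, 3.25 and 3.65 CPM to 1.14, 1.52, 2.19, 1.90 and 1.21 CPM (-1.22 ± 0.19), and Cdkn1c (0.65), a CDK inhibitor, rose. Cholesterol synthesis had 4 of 24 genes higher and 2 lower. For comparison with each list here, 15.4% of all genes tested rose and 15.5% fell. Reference genes were not fixed points, with 5 of 10 lower and 1 higher, at a median of -0.07. Of 7 fibroblast feeder markers tested 1 rose and 2 fell. The summed level of those tested was 1231 to 1335 CPM with Dox and 1219 to 1359 CPM with Dox+auxin. Of 12 primitive endoderm markers tested 4 rose and 1 fell (743 to 796 and 726 to 812 CPM, summed likewise). Of 8 trophoblast markers tested 2 rose and 2 fell (91.6 to 136 and 117 to 188 CPM). Of 7 mesoderm and definitive endoderm markers tested 1 rose (34.4 to 40.2 and 37.1 to 45.4 CPM).

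**Figure D4:**
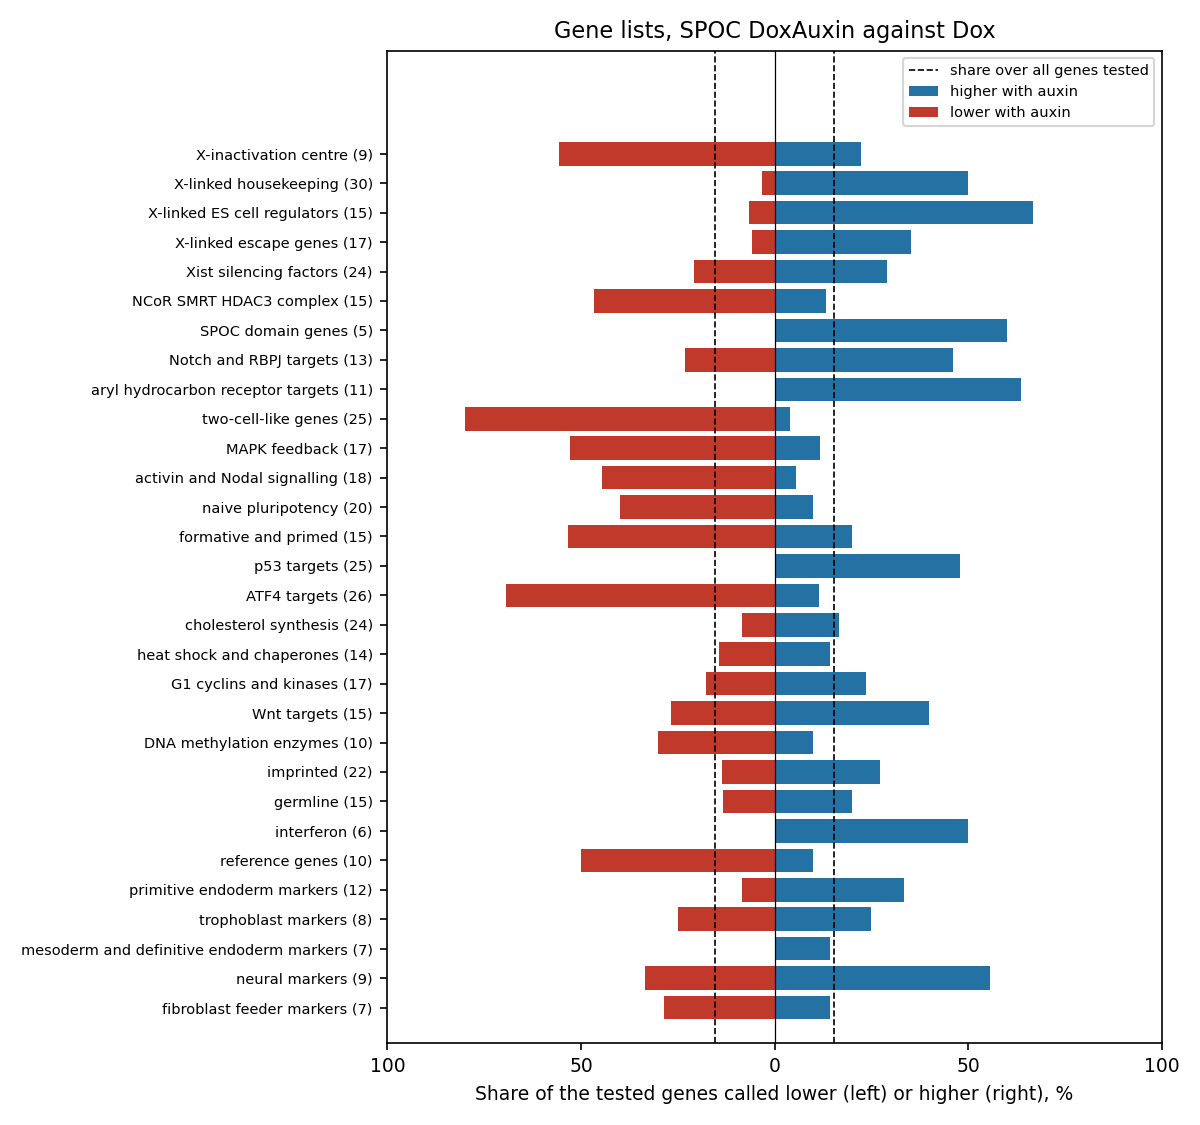
Share of the tested genes of each list (number in brackets) called higher (blue, right) or lower (red, left) in SPOC-line cells when auxin was added, in % (edgeR, adjusted p under 0.05). Dashed lines mark the shares over all genes, 15.4% higher and 15.5% lower; 20 of 25 2-cell-like genes and 18 of 26 ATF4 targets were lower, and 7 of 11 AhR targets higher.

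Autosomal genes also changed their allelic balance with auxin, in both directions. Of 12244 autosomal genes, 236 had a higher and 200 a lower BL6 to CAST ratio (edgeR, adjusted p under 0.05). Of these 436, 282 were called in the same direction in the GFP line and 0 in the opposite one, where 515 and 521 of the 12244 were called higher and lower. By limma on the allelic ratios 119 and 91 autosomal genes passed in the SPOC line, and 85 and 56 with a replicate block. Eif4g3, a translation initiation factor, went from 59.6%, 46.7%, 33.3%, 43.9% and 40% BL6 to 78.1%, 65.4%, 60.9%, 67.2% and 72.7% (log2 change of the ratio 1.37 ± 0.25), and its total rose by 0.79. Lef1, the Wnt effector, went from 42.5% ± 1.1 to 25.7% ± 4.6 as its total fell by 0.70; it ranks outside the 6 largest and was chosen after its values were seen. Cyp2b23, a P450 gene, had 90.7% ± 2.7 with Dox and 96.7% ± 1.1 with Dox+auxin, and Gcnt4, a glycosyltransferase gene, 76.4% ± 4.2 and 59.9% ± 5.3. The rest of the 6 largest rises were Hoxb9, Carns1, Sertm1 and Gramd3, on lowest allelic counts of 10 to 14, and the rest of the 6 largest falls were C2, Samd9l, Ano1, Igfbp4 and Fosl2, on 10 to 162.

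The effect of auxin was then compared with that in the GFP line. The X-linked median BL6 share of GFP-line libraries was 20.2% to 24.0% with Dox and 46.3% to 47.8% with Dox+auxin, a difference of 24.7 points, against 8.78 points in the SPOC line. The difference between lines was -16.0 points, with ranges that overlapped in no pair of these 4 groups. Reassigning libraries between treatments within a line tests for any auxin effect and not for equal effects, so this value is given without a p. Dox libraries of the SPOC line started higher (30.2% on average against 22.5%) and Dox+auxin libraries ended lower (39.0% against 47.2%). In the test per gene, 273 of 442 X-linked genes had a lower log2 change of the BL6 to CAST ratio in the SPOC line. In 1, the pseudogene Llph-ps2, the change was higher (edgeR interaction, adjusted p under 0.05 both ways). Over all genes these shares were 2.43% and 0.252%. For Rlim, GFP-line shares went from 11.9% to 51.3%, and for Firre from 24.1% to 78.3%, and both differed between lines (adjusted p = 0.00012 and 3.4e-05, edgeR).

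In total counts, 292 of 698 X-linked genes had a lower log2 fold change in the SPOC line and 2 a higher one, Kdm6a and the pseudogene Gm9432, beside 4.17% and 2.92% of all genes. The median of this difference was -0.35 over X-linked and 0.00 over autosomal genes. Among the 10 largest differences below 0 were those of Ripply1 (-1.67), Platr21 (-1.61), Armcx3 (-1.44), Hs6st2 (-1.43) and Rab39b (-1.33) on the X chromosome and Tmem211 (-1.87), Lrrn1 (-1.36) and Slc40a1 (-1.34) on autosomes. Ripply1, a transcriptional co-repressor, had 3.38 to 6.04 CPM with Dox and 6.16 to 8.30 CPM with Dox+auxin in the SPOC line, against 2.91 to 4.86 and 16.2 to 22.1 CPM in the GFP line.

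The autosomes differed less between the lines. Of 17297 autosomal genes, 524 had a higher and 459 a lower log2 fold change in the SPOC line; without SPOC Dox replicate 2, the 526 genes called higher over all chromosomes became 333. Of the 2497 autosomal genes that rose in the SPOC line, 82.4% also rose in the GFP line, which is 54.3% of the 3787 that rose there. For falls these shares were 81.6% and 53.8%. The 10 largest differences above 0 belonged to genes whose fitted fold change lay further below 0 in the GFP line: Vat1l (1.41), Nfe2 (1.38), Atp2a3 (1.28), Sh3rf2 (1.24), Pou2f3 (1.24), Dio3 (1.21), Allc (1.20), Mmp28 (1.14), Id1 (1.10) and Csf3r (1.08). In the SPOC line alone Csf3r did not pass, and Id1 (-0.52) and Mmp28 (-0.44) lost their calls under several alternatives. Atp2a3, a calcium pump of the endoplasmic reticulum, went from 6.20 to 8.16 CPM to 2.70 to 4.34 CPM in the SPOC line and from 8.85 to 9.24 CPM to 1.77 to 2.00 CPM in the GFP line. Nfe2, a leucine zipper transcription factor, went from 4.58 to 5.32 CPM to 1.99 to 4.31 CPM and from 4.35 to 5.60 CPM to 1.02 to 1.33 CPM.

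**Figure D5:**
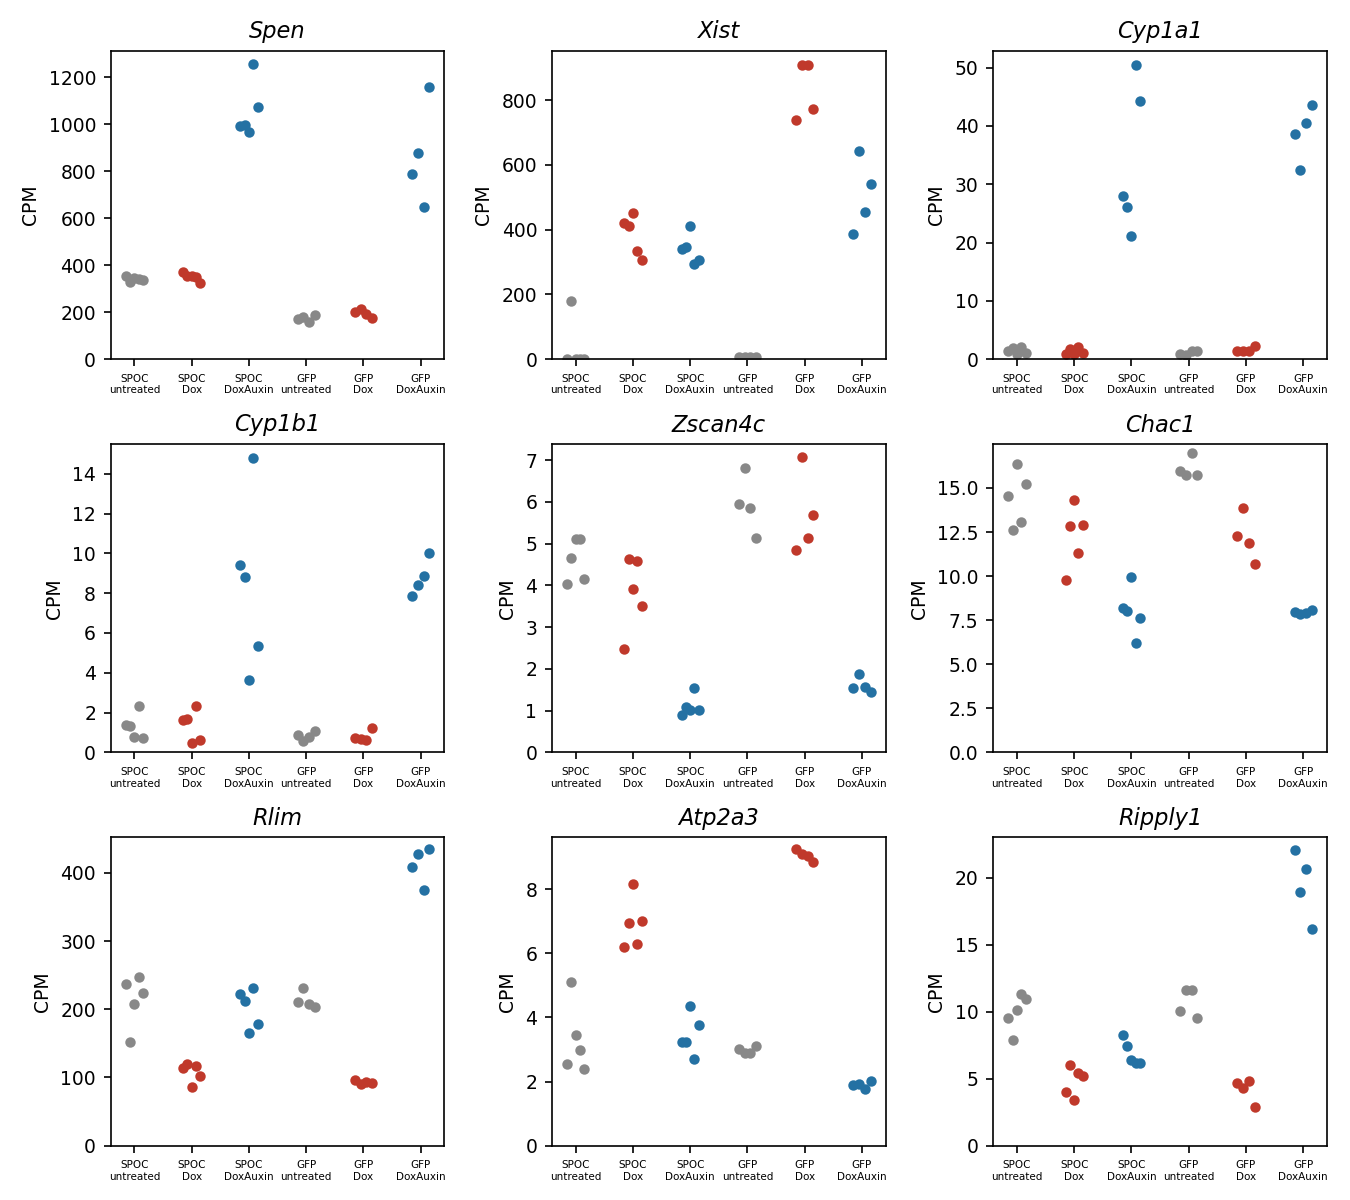
CPM (y axes, from 0) of 9 genes in each of the 27 libraries by group, 1 point per library. Spen, Cyp1a1 and Cyp1b1 are higher and Zscan4c and Chac1 lower with Dox+auxin in both lines, while Rlim and Ripply1 are higher and Atp2a3 lower with Dox+auxin, by more in the GFP line; Xist overlaps between SPOC Dox (305 to 452 CPM) and SPOC Dox+auxin (293 to 411 CPM).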

How the data were processed

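RNA was sequenced from 27 libraries of 6 groups. Per the file headers, the authors deposited total read counts for each gene, separate counts for the BL6 and CAST alleles, and RPKM (27 columns, not used). In the submitters' processing notes stand mm10, featureCounts, Trim Galore 0.4.4, Picard 2.18.2, STAR 2.5.3a and DESeq2 1.18.1, with no role. The sources used here name neither the method of assigning reads to alleles nor the strand setting. In 27 of 27 cases an allelic column pair carried a name that went against the totals. Each pair was therefore assigned to the 1 total column never below BL6 plus CAST in any gene. Any other total fell below in at least 1303 genes. All allelic values rest on this assignment. GENCODE M21 (GRCm38) gave names and positions for 53706 of 53801 IDs, and RefSeq (GRCm38.p6) the promoters.

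Total counts of the 18 Dox and Dox+auxin libraries of both lines were scaled by TMM, filtered by filterByExpr and tested with edgeR 4.0.16 in R 4.3.3 (robust quasi-likelihood, Benjamini-Hochberg, adjusted p under 0.05). SE is the absolute log2 fold change over the root of F. Untreated libraries stayed out of the fit because 1 carries Xist. Allelic counts were fitted with a term per library, for genes with at least 10 in every library. Values per library were tested by exact permutation (Python 3.11.15). The naming rule took Xist, Tsix, Spen, list members, the 12 largest autosomal and 10 largest X-linked called rises and falls (average of 1 CPM or more, no overlap), the 10 largest differences between lines each way (overlap allowed), and the 10 X-linked and 6 autosomal largest called changes of BL6 share each way, without predicted genes and pseudogenes. Some genes the rule took are not reported here. Members and lists were chosen with earlier results of these data known. Both fits were also run on simulated counts, the allelic ones with the same excess spread for every gene, and no result here rests on those runs. Alternatives were DESeq2 1.42.0, limma 3.58.1, other scaling and filters, other sets of libraries and a replicate block.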

Additional observations from a re-analysis of the deposited data

Results flagged for a closer look

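SPOC untreated replicate 2 lay far from its group, with X-linked output of 0.092 (log2), a median X-linked BL6 share of 39.3%, a BL6 allele level of 0.36 (log2) and Xist at 179 CPM; of the tests, it entered only the alternative fit over all 27 libraries. In the GFP line, replicate 2 stood apart in X-linked output both with Dox (-0.34) and with Dox+auxin (0.24).

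Single libraries also lay far from the other 4 of their SPOC group for Magt1 with Dox+auxin (147 CPM), Ahrr with Dox (1.26 CPM), Zscan4c with Dox+auxin (1.54 CPM), Inhbb with Dox (7.87 CPM), Nes with Dox (48.8 CPM) and with Dox+auxin (105 CPM), and for the BL6 share of Kdm6a with Dox (51.1%) and of Atrx with Dox+auxin (22.4%). Chance marks about 1 in 20 groups in this way.

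Between the lines, 292 X-linked genes in total counts and 273 in the BL6 to CAST ratio had a lower log2 change with auxin in the SPOC line (edgeR interaction, adjusted p under 0.05).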

How the results depend on the processing

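Of 153 genes followed, 138 kept their call and direction under every alternative. Those that changed sign had not passed in the first place: leaving out 1 SPOC library moved Armcx3 between -0.28 and 0.059, Carns1 between -0.10 and 0.034, Lrrn1 between -0.31 and 0.052 and Rps6ka6 between -0.043 and 0.053 (log2 fold change in total counts).

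Same-numbered SPOC libraries correlated at -0.05 to 0.47 in their deviations, so the numbers were not taken to pair them, although replicates 3, 4 and 5 correlated best with their own number. With a replicate block, 1157 genes had a higher and 1460 a lower effect in the SPOC line than in the GFP line (526 and 751 without), 5 of the higher ones X-linked. Blocked, the differences of 8.78 points in BL6 share and 0.19 in X-linked output had an exact permutation p of 0.0625, the smallest that 5 pairs give. Limma on allelic ratios called 119 autosomal genes higher and 91 lower, and 85 and 56 with the block (236 and 200 in edgeR). For the difference between lines it called 18 and 18 autosomal genes (31 and 35 in edgeR) and 0 X-linked genes higher, as did a minimum of 50 allelic counts (0). Genes X-linked and called lower in BL6 share numbered 1 with 50 counts, 1 with only the 10 SPOC libraries and 1 with Dox+auxin replicates 1 and 2, the closest pair, as 1 sample. X-linked genes with a higher effect in the SPOC line numbered 1 with TMM over autosomal genes and 1 with those replicates as 1 sample. The causes were not tested.

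Leaving out 1 of the 10 SPOC libraries (no GFP-line library was left out) gave 333 (without SPOC Dox replicate 2) to 592 genes with a higher effect in the SPOC line, 1 to 3 of them X-linked, and 0 to 2 X-linked genes lower in BL6 share. Counting depth limits genes with few allelic counts.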
